A study of Mus musculus with 12 samples.

Results

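The cerebellum of Ts1Cje mice was compared between postnatal day 15 (P15) and the day of birth (P0), on 4 of the 12 arrays of the series. Ts1Cje mice carry a segmental trisomy: they have an additional copy of the distal part of chromosome 16, whose genes have counterparts on human chromosome 21, and they are used as a model of Down syndrome. For each stage the total RNA of 3 Ts1Cje cerebella was combined into 1 pool, which was hybridised to 2 Affymetrix arrays. The euploid samples of the same stages (with the normal pair of chromosomes 16) were again 3 cerebella a pool and 2 arrays a pool. They show where the Ts1Cje values differed, and they also entered the signal filter and the limma model described below. So did the pools of postnatal day 30 (P30), of 3 Ts1Cje and 2 euploid cerebella, which are otherwise not described. The labels name no treatment, strain background or sex for any group, and pooling hides the spread between animals. The 4 arrays were chosen by their titles, and every probe set that is not an array control was considered, which gave 12422 probe sets of 12488.

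The cerebellum is built largely after birth. In the mouse, granule cell progenitors divide in the external layer under Sonic hedgehog from Purkinje cells, leave the cycle, extend parallel fibres and migrate past Bergmann glia to the internal layer. Over the same days Purkinje cells grow their dendrites, synapses form and oligodendrocytes wrap axons in myelin. The interval from P0 to P15 spans most of these events, and the comparison asks how the trisomic tissue passed through them.

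Promoters poor in CG dinucleotides were more frequent below among genes that rose. Genes that fell had the median CG count of all genes (16), so a high count is not a property of falls as a group. Promoters from the largest rises and the largest falls, 2 of each kind, are printed. They are RefSeq sequences on GRCm38.p6, 150 bases ending just before the annotated start, written 5′ to 3′ on the gene's strand with CG in capitals.
Mobp (chr9:120149592-120149741, plus strand): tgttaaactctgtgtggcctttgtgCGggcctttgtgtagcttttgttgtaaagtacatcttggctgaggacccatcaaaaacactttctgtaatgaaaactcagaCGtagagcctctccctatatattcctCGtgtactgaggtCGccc
Gabra6 (chr11:42321073-42321222, minus strand): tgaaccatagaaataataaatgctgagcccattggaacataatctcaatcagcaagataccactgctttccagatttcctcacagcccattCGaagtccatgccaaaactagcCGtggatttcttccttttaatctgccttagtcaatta
Nnat (chr2:157559928-157560077, plus strand): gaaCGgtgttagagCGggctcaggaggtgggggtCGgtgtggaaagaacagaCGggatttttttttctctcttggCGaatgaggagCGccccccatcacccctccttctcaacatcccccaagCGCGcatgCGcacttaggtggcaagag
Gata3 (chr2:9878601-9878750, minus strand): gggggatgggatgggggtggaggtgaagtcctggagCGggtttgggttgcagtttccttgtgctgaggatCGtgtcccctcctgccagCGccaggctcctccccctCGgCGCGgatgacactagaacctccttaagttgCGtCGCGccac
The Mobp window held 4 CG and the Gabra6 window 2, against 9 each for Nnat and Gata3.

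Signals are MAS5 intensities, and the step of a gene is its mean log2(signal + 4.6) at P15 minus that at P0. The value 4.6 damps the noise of dim probe sets, so steps understate the change of genes that were near background at one stage. With 1 pool a stage there is no test within Ts1Cje. A gene is said to have risen or fallen where the step was at least 2-fold and both P15 arrays lay beyond both P0 arrays, a rule that describes these pools. The ± after a step is an SD from the 2 arrays of each stage, and it holds hybridisation error only. A test was possible only for the stage effect over both genotypes, with limma on pool means (2 pools a stage, 1 of each genotype). Its p-values are adjusted over 7453 probe sets and rest on 2 residual degrees of freedom. No condition has a replicate pool, so the residual mixes genotype differences in the stage effect with pool error. The test includes the Ts1Cje pools, so its p-values for genes picked by their Ts1Cje step, such as Mobp and Nnat, are not independent of that choice. In bulk tissue, fewer cells of a type and less RNA per cell cannot be told apart. The gene lists below were chosen with earlier results of these data known. The contrast of their shares with those of all genes may thus be partly built in, and it is a description only.

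Of 5668 genes measured above the signal filter, 402 rose (7.09%) and 351 fell (6.19%) in Ts1Cje from P0 to P15. At the level of probe sets 537 of 7453 rose (7.21%) and 458 fell (6.15%). Without P15 array 1 these counts were 559 and 629, and without the signal filter 597 and 731. Which direction was more frequent thus rests on that array and on the filter. The rises were the more extreme: 85 genes rose at least 4-fold and 13 at least 16-fold, while 38 fell at least 4-fold and 0 reached a 16-fold fall. At the stage where they were lower, 104 of the genes that rose and 57 of those that fell lay under the filter signal of 20.1. The filter took the mean over all 12 arrays, so they passed it through other arrays. Over both genotypes limma called 818 genes higher (14.4%) and 806 lower (14.2%). These included 357 of the genes that rose and 325 of those that fell in Ts1Cje. The Ts1Cje pools are part of that test, so the overlap is partly built in and is no independent check. Repeat arrays of a pool correlated across probe sets at r = 0.973 (P0) and 0.975 (P15), against 0.863 to 0.876 between stages. The P0 repeats differed at least 2-fold for 2.31% of probe sets and the P15 repeats for 1.92%.

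**Figure D1:**
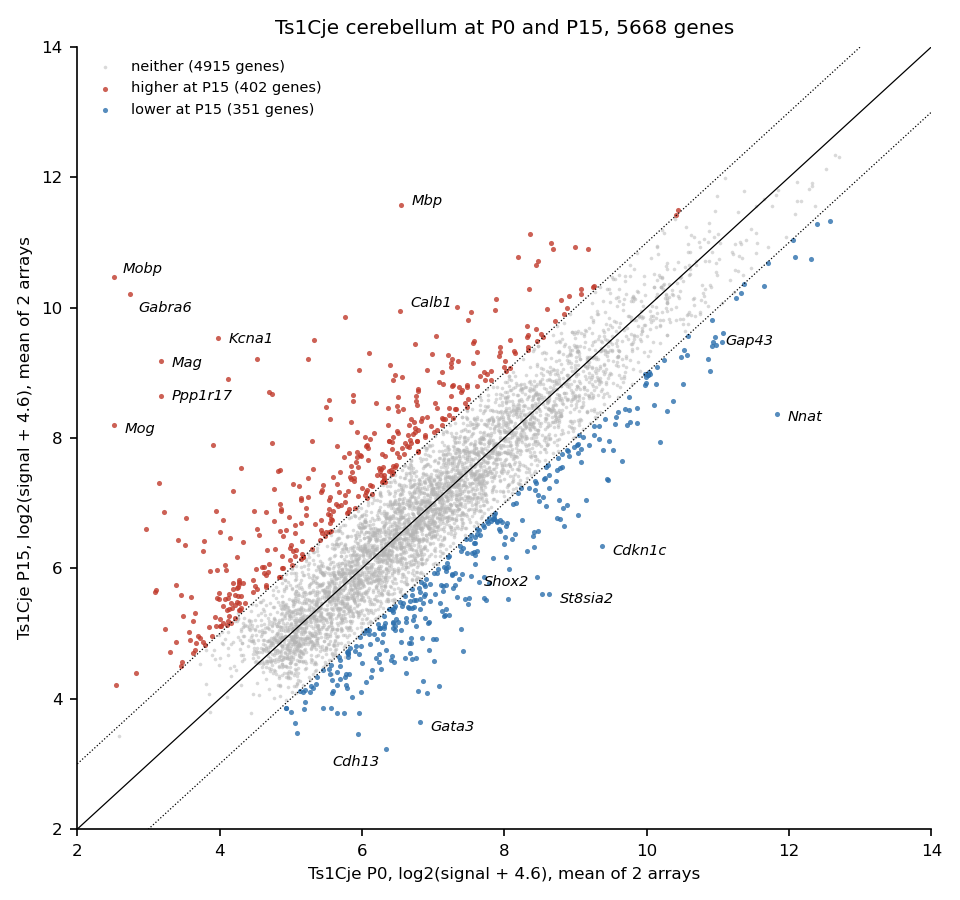
Mean log2(signal + 4.6) of the Ts1Cje P0 arrays (x axis) and P15 arrays (y axis), 1 point a gene, with the line of equality and dotted lines at 2-fold. The 402 genes that rose reach steps near 8 (Mobp, Gabra6), whereas the 351 that fell stop at the -3.47 of Nnat.

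Markers of the labelled tissue were present. Zic1, a factor of the granule cell lineage, had signals of 2043 and 2336 at P0 and 3684 and 4512 at P15, and Pcp2, a Purkinje cell protein, had 39.0 and 103 at P0 and 587 and 671 at P15. Of markers of neighbouring tissue, Ttr of the choroid plexus (143 and 137, then 142 and 126), the meningeal collagen Col1a1 (272 and 324, then 252 and 242) and the haemoglobin gene Hba-a1 (2653 and 2405, then 1917 and 2202) did not pass the rule. In the meningeal and matrix list 4 of 25 genes fell (16%, against 6.19% of all genes) and 1 rose (4%, against 7.09%). In the choroid plexus list 1 of 4 rose, Kl. The summed signal of the blood list went from 3506 and 3242 to 2633 and 3078, that of the microglia list from 877 and 992 to 1169 and 1213. Xist, which is transcribed from the inactive X of females, was at 6.7 and 1.8 at P0 and at 106 and 77.6 at P15, while the Y-linked Kdm5d went from 7.8 and 10.8 to 0.6 and 1.9. Both were under the filter. The labels give no sex, and the part of these 2 genes' shift in the other results was not tested.

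Most myelin genes rose. Of 24 measured genes of the oligodendrocyte list, 16 rose (66.7%, against 7.09% of all genes) and 0 fell, with a median step of 1.89 against -0.02 over all genes. Mobp, a protein of compact central myelin, was at 0.8 and 1.5 on the P0 arrays and at 1401 and 1426 on the P15 arrays. It had the largest step of any gene, 7.95 ± 0.13, and its 4 probe sets gave 6.18 to 7.95. Over both genotypes the Mobp step was 7.91 (limma, SE 0.15, adjusted p = 4.41e-08). Mbp, the basic protein that zippers the myelin membrane, was already present at birth, with signals of 82.9 and 96.4, and stood at 2884 and 3219 at P15. Its step was 5.02 ± 0.18, although a dimmer second probe set for Mbp gave -0.27. Mag and Mog lie on the inner and the outer face of the sheath. Mag signals were 5.6 and 3.4, then 571 and 585 (step 6.01 ± 0.25). Mog signals were 0.5 and 1.8, then 331 and 256 (step 5.69 ± 0.35). The arrays of the 2 stages did not overlap for any of these genes, which the rule for a rise requires.

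Other genes of the sheath followed. Ugt8a, which makes galactocerebroside, had a step of 4.17 ± 0.68. Cldn11, of the tight junctions between myelin lamellae, had 3.97 ± 0.20, and Mal, a raft protein of the sheath, had 3.94. Gsn, the actin-severing gelsolin, had 4.68 ± 0.06. Among the 8 members that did not pass the rule was Pdgfra, the receptor of oligodendrocyte precursors. Its signals were 317 and 483 at P0 and 405 and 354 at P15 (step -0.05). Sox10, which marks the lineage from precursor to mature cell, had a step of 0.80. The steps within the list ran from the -0.05 of Pdgfra to the 7.95 of Mobp.

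**Figure D2:**
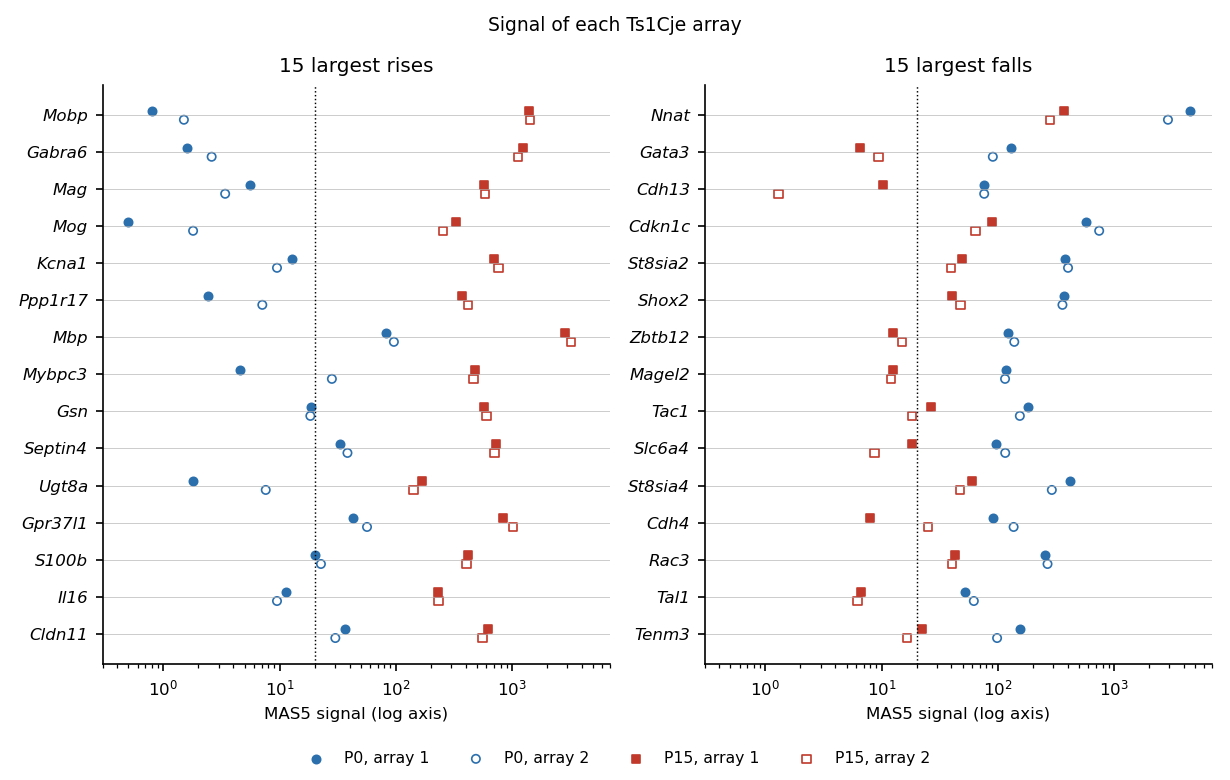
MAS5 signal (log axis) on each of the 4 Ts1Cje arrays for the 15 genes with the largest rises and the 15 with the largest falls, circles for P0 and squares for P15, filled for array 1 and open for array 2. The dotted line is the filter at a mean signal of 20.1. Mobp, Gabra6, Mag and Mog start under that line at P0, whereas the falls start between the 52.5 of Tal1 and the 4533 of Nnat.

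Many genes of Purkinje and granule cells rose. Of 22 Purkinje cell genes 15 rose and 2 fell (median step 1.85), and of 18 genes of mature granule cells 9 rose, 1 fell and 8 passed neither way (median 1.19), against 7.09% and 6.19% of all genes. Of 10 genes of GABAergic interneurons 2 rose and 2 fell, with a median of -0.16 that turned to 0.12 with a stricter signal filter. Calb1, the calcium buffer calbindin of Purkinje cells, was at 83.6 and 93.2 at P0 and 949 and 1014 at P15, a step of 3.41. Ppp1r17, a phosphatase inhibitor of Purkinje cells, was at 2.4 and 7.1, then 372 and 419 (step 5.46 ± 0.54). Car8, which binds the inositol trisphosphate receptor in these cells, went from 354 and 234 to 1873 and 1644, and Slc1a6, their glutamate transporter, had a step of 2.52. All P15 arrays of these genes lay above all P0 arrays, as the rule for a rise requires. Rora, the nuclear receptor that Purkinje cells need to mature, had a step of 1.81. The 2 Purkinje genes that fell are transcription factors of early specification, Ebf2 (step -1.16) and Lhx5 (step -1.03).

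In the granule cell list, Gabra6 led. This GABA-A receptor subunit, which in the brain is nearly restricted to mature granule cells, was at 1.6 and 2.6 at P0 and 1241 and 1132 at P15 (step 7.48 ± 0.18). A second Gabra6 probe set gave 6.71. Gabrd, the delta subunit that joins it in receptors outside synapses, was at 2.1 and 4.5, then 103 and 84.2 (step 3.64). Grin2c, the NMDA receptor subunit of mature granule cells, had a step of 2.74, Neurod1, a factor of differentiating granule cells, 2.79, and Cbln1, which granule cells secrete at parallel fibre synapses, 2.21. Rab3b, a vesicle GTPase, was the member that fell (108 and 92.1, then 45.8 and 47.8).

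Genes of astrocytes and Bergmann glia moved in both directions. Of 28 genes, 14 rose (50%, against 7.09% of all genes) and 5 fell (17.9%, against 6.19%), with a median of 1.07. S100b, a calcium-binding protein of mature astrocytes, was at 20.1 and 22.7, then 418 and 408 (step 4.01 ± 0.11). Dio2, the deiodinase that makes active thyroid hormone in glia, had a step of 3.25, Gfap 2.97, Gdf10 of Bergmann glia 2.74, and Aqp4, the water channel of astrocyte endfeet, 2.24. The members that fell are known from radial glia and progenitors: Ptprz1 (1197 and 1034, then 472 and 425), the matrix protein Tnc, the intermediate filament gene Nes, Sox2 and the receptor gene Fgfr3. Gpr37l1, a receptor of astrocytes that is in no list, was among the largest rises, with 43.1 and 56.6 at P0 and 832 and 1026 at P15.

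Many genes of growing neurites fell. Of 36 growth cone and young neuron genes, 18 fell (50%, against 6.19% of all genes), 1 rose and 17 passed neither way, with a median step of -1.0. Nnat, a small membrane protein of immature neurons and an imprinted gene, was at 4533 and 2924 at P0 and 372 and 284 at P15, the largest fall of any gene (-3.47 ± 0.52). Over both genotypes the Nnat step was -3.99 (limma, SE 0.23, adjusted p = 1.54e-05). St8sia2 and St8sia4 are the enzymes that add polysialic acid to NCAM. St8sia2 was at 380 and 403, then 48.8 and 39.7 (step -3.02 ± 0.20), St8sia4 at 416 and 292, then 60.3 and 47.5 (step -2.60 ± 0.42), and their substrate gene Ncam1 at 1556 and 1502, then 718 and 786 (step -1.02). Both enzymes thus fell by more than their substrate. Dcx, the doublecortin of migrating neurons, was at 1980 and 1797, then 500 and 532, and Gap43, a growth cone protein, at 2012 and 1978, then 744 and 753. Rnd2, a GTPase of migrating neurons, was the exception that rose (111 and 101, then 259 and 289).

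In the adhesion list 9 of 28 genes fell (32.1%, against 6.19% of all genes), led by Cdh13 (76.5 and 76.5, then 10.2 and 1.3, step -3.12 ± 0.94) and Cdh4 (step -2.59 ± 0.97), both cadherins, and 1 rose, Cdh15, the cadherin of granule cells (step 1.79). In the axon guidance list 5 of 26 fell (19.2%) and 3 rose (11.5%, against 7.09% of all genes). The medians of both lists, -0.47 and -0.24, turned to 0.02 with the filter at the 60th percentile. Those that fell are receptors or ligands of outgrowing axons: Epha5 (step -2.21), Robo1, Nrp1, Epha7 and Efnb3. Those that rose are semaphorin ligands, Sema7a (step 1.17) and Sema3e (1.32), and the plexin Plxna2 (1.34). A dimmer probe set for Sema7a gave -0.11, so that rise rests on 1 probe set.

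Several families exchanged members. Of 11 tubulin genes, Tubb3 (3313 and 3373, then 1600 and 1692) and Tubb5 fell while Tubb4a (537 and 608, then 1831 and 1994) and Tuba4a (86.9 and 77.0, then 457 and 488) rose. Tubb3 is the isotype of young neurons, Tubb4a one of mature neurons and oligodendrocytes. Of the neurofilaments, Nefh of thick axons rose (100 and 108, then 381 and 367), while Nefl, the light chain, had a step of -0.93 that missed the 2-fold rule. Among glutamate receptors the kainate subunit genes Grik1 (step -1.33) and Grik5 (-1.02) fell, and Grik2 (1.31), the AMPA subunit Gria4 (1.46) and Grin2c rose. A dimmer Grik5 probe set gave 1.19, so its direction differed between probe sets. The engrailed pair parted as well: En1 was at 209 and 212, then 44.4 and 37.9, and En2 at 373 and 367, then 724 and 766. Of the young neuron factors, Sox4 and Sox11 fell (steps -2.08 and -1.17) and the nuclear factor I genes Nfib (1.09) and Nfix (2.12) rose.

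**Figure D3:**
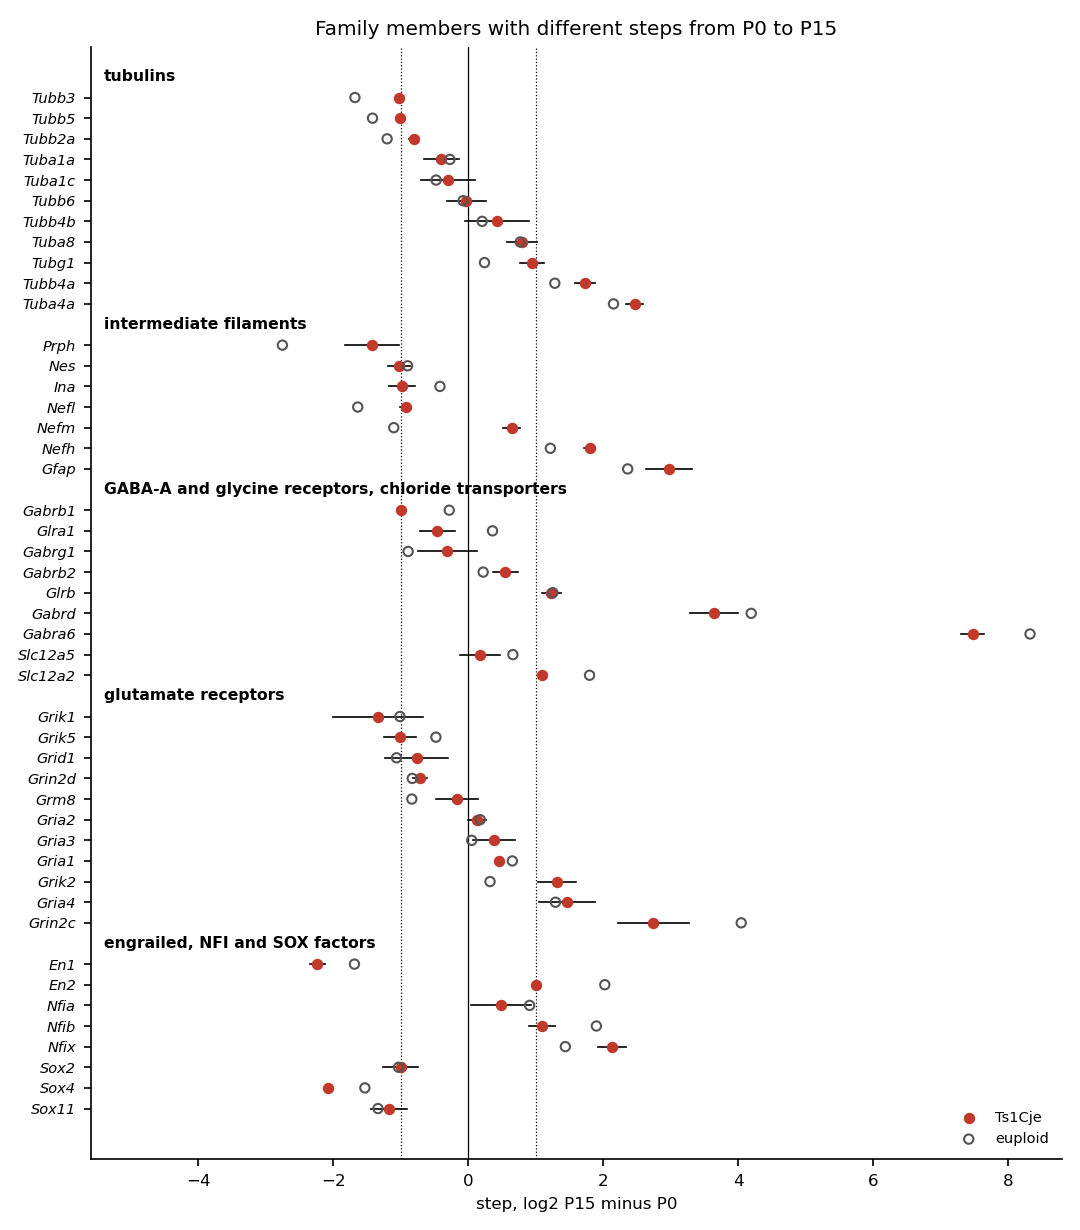
Step from P0 to P15 (log2) of single genes in 5 families, filled circles for Ts1Cje with a line from the lowest to the highest difference between a P15 and a P0 array, and open circles for euploid. Dotted lines mark 2-fold. Within each family some genes lie left of zero and others right of it, such as Tubb3 at -1.02 and Tuba4a at 2.46.

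The chloride transporters behaved unequally. Slc12a2, the importer that keeps chloride high in young neurons and is also expressed in glia, rose from 359 and 363 to 776 and 770 (step 1.09). Slc12a5, the exporter of mature neurons, had 46.6 and 52.1 at P0 and 47.3 and 66.6 at P15, and its arrays overlapped. Glrb, the glycine receptor subunit that anchors to gephyrin, rose with a step of 1.23. In the inhibitory receptor list as a whole 4 of 11 genes rose (36.4%, against 7.09% of all genes) and 0 fell.

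Excitability and calcium handling rose in many members. Of 31 channel and sodium pump genes 13 rose (41.9%) and 2 fell (6.45%), against 7.09% and 6.19% of all genes. Kcna1, a potassium channel of axons and basket cell endings, was at 12.9 and 9.5, then 701 and 767 (step 5.55 ± 0.24), and the leak channel gene Kcnk1 at 50.1 and 65.5, then 520 and 521. Sodium channel genes Scn8a (1.1) and Scn1a (1.18) rose less. Those that fell were Fxyd7, a regulator of the sodium pump (-1.34), and the pacemaker channel gene Hcn3 (-1.04). Of 25 calcium and calcineurin genes 8 rose (32%), among them the pumps Atp2a3 (2.70), Atp2b2 (2.14) and Atp2a2 (1.43), and 1 fell (4%), Rcan1. Of 27 vesicle release genes 7 rose (25.9%) and 3 fell (11.1%). Snap25, the SNARE of the plasma membrane, rose from 534 and 479 to 1941 and 1956, Vamp1 from 16.5 and 6.8 to 109 and 119, and the complexin Cplx1 from 96.9 and 139 to 490 and 559. Stx1a fell from 180 and 195 to 79.0 and 59.9.

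Proliferation genes moved down by small steps. Of 55 genes of cell division and DNA replication 7 fell (12.7%, against 6.19% of all genes) and 2 rose (3.64%, against 7.09%). Yet 45 had a negative step and the median was -0.50, against -0.02 over all genes. Mki67, the antigen of cycling cells, was at 59.9 and 61.1, then 31.5 and 24.2 (step -1.01), although a dim second probe set for Mki67 gave -0.09. Cdk1, the mitotic kinase, had a step of -1.08 and Hmgb2, a chromatin protein of dividing cells, -1.80. The 2 that rose were Rpa1, of single-stranded DNA binding, and Anln (21.3 and 18.8, then 66.6 and 47.1), which is also expressed in oligodendrocytes. In limma over both genotypes 19 of the 55 were lower and 2 higher, against 14.2% and 14.4% of all genes. Of 15 genes of granule progenitors and Sonic hedgehog signalling 2 fell (13.3%), Id4 (887 and 797, then 293 and 289) and Hes5, and 1 rose (6.67%), Nhlh1. A negative step was found for 11 of the 15, and the median was -0.33. Among the 4 positive steps were those of Ptch1, the hedgehog receptor and target (0.60), and Ccnd1, the cyclin of progenitors (0.18).

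Housekeeping groups differed in their steps. Of 24 cytosolic ribosomal protein genes 3 fell (12.5%, against 6.19% of all genes) and 0 rose. A negative step was found for 22, and the median was -0.64, against -0.02 over all genes. In limma 19 of the 24 were lower over both genotypes, against 14.2% of all genes. Rplp0, of the ribosomal stalk, was at 3774 and 4152, then 1985 and 2344. Oxidative phosphorylation went the other way by small steps, with 56 of 66 positive and a median of 0.32. Only 2 genes passed the rule (3.03%, below the 7.09% of all genes), Sdha (1.11) and Uqcr11 (1.0). Of 33 genes of glycolysis and energy supply 8 rose (24.2%) and 0 fell. Those that rose include Eno2 of neurons (2.09), Pfkm (1.90) and the creatine kinase Ckb (1.05). The proteasome list had 0 of 32 past the rule in either direction, and limma called 2 of those 32 lower.

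Of 33 homeobox genes 9 fell (27.3%, against 6.19% of all genes) and 1 rose. Shox2 was at 370 and 361, then 40.4 and 47.8 (step -2.93 ± 0.16), and Pbx3 at 729 and 666, then 163 and 154 (step -2.10). Of 20 imprinted and IGF genes 6 fell (30%), including the cell cycle inhibitor Cdkn1c (581 and 748, then 90.0 and 64.4), Plagl1 (step -1.98), Dlk1 (-1.52) and Ndn (-1.11). Magel2, another imprinted gene and a neighbour of Ndn on chromosome 7, was at 117 and 116, then 12.6 and 12.1. The 1 member that rose was Igfbp6 (12 and 10.9, then 92.5 and 87.6). Gata3 (129 and 90.8, then 6.5 and 9.4) and Tal1 (52.5 and 62.3, then 6.6 and 6.2), factors of hindbrain and midbrain neurons, fell to signals under the filter. So did Slc6a4, the serotonin transporter of raphe neurons (96.3 and 116, then 18.3 and 8.7), whose second probe set gave -0.51. Tac1, the precursor of substance P, was at 181 and 155, then 26.4 and 18.3 (step -2.69 ± 0.34). Raphe and GATA factor neurons lie outside the cerebellar cortex. In the brainstem and hindbrain list 3 of 10 genes fell (30%, against 6.19% of all genes) and 0 rose. The summed signal of this list was 735 and 827 at P0 and 444 and 453 at P15. The part of adjoining tissue in these falls was not tested.

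Other genes were among the 15 largest rises or falls. Mybpc3, a myosin-binding protein best known from heart, was at 4.6 and 28.2, then 484 and 467 (step 4.79), and its P0 arrays differed widely. Septin4, of the septin scaffold and a member of the myelin list, was at 32.8 and 38.4, then 733 and 710. Il16, a cytokine precursor with a neuronal form, was at 11.4 and 9.5, then 232 and 234. The falls included those of Zbtb12, a zinc finger gene (123 and 139, then 12.6 and 14.9), Rac3, a GTPase of neurons (253 and 269, then 42.6 and 40.3), and Tenm3, a teneurin of axon targeting (155 and 98.8, then 22.4 and 16.5). That the arrays of the 2 stages stood apart in each case follows from the rule by which these genes were picked.

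Hormone and activity genes rose in part. Of 16 hormone-responsive genes 5 rose (31.2%, against 7.09% of all genes) and 1 fell (6.25%, against 6.19%). Among those that rose were Thrsp (15.9 and 29.9, then 226 and 249) and the thyroid hormone target Klf9 (105 and 108, then 421 and 413). The fall was that of Fkbp5, a glucocorticoid target (252 and 248, then 74.7 and 82.7). Of 21 immediate early genes 7 rose (33.3%), with Fos at 51.7 and 42.7, then 175 and 172, and Klf6 fell (step -1.11). Of other cell types, 0 of 12 microglia genes, 0 of 5 blood genes and 1 of 21 endothelial and pericyte genes passed the rule, against 7.09% and 6.19% of all genes in the 2 directions. Of the microglia steps 10 of 12 were positive. In limma 5 of the 21 endothelial and pericyte genes were higher and 2 lower, against 14.4% and 14.2% of all genes.

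**Figure D4:**
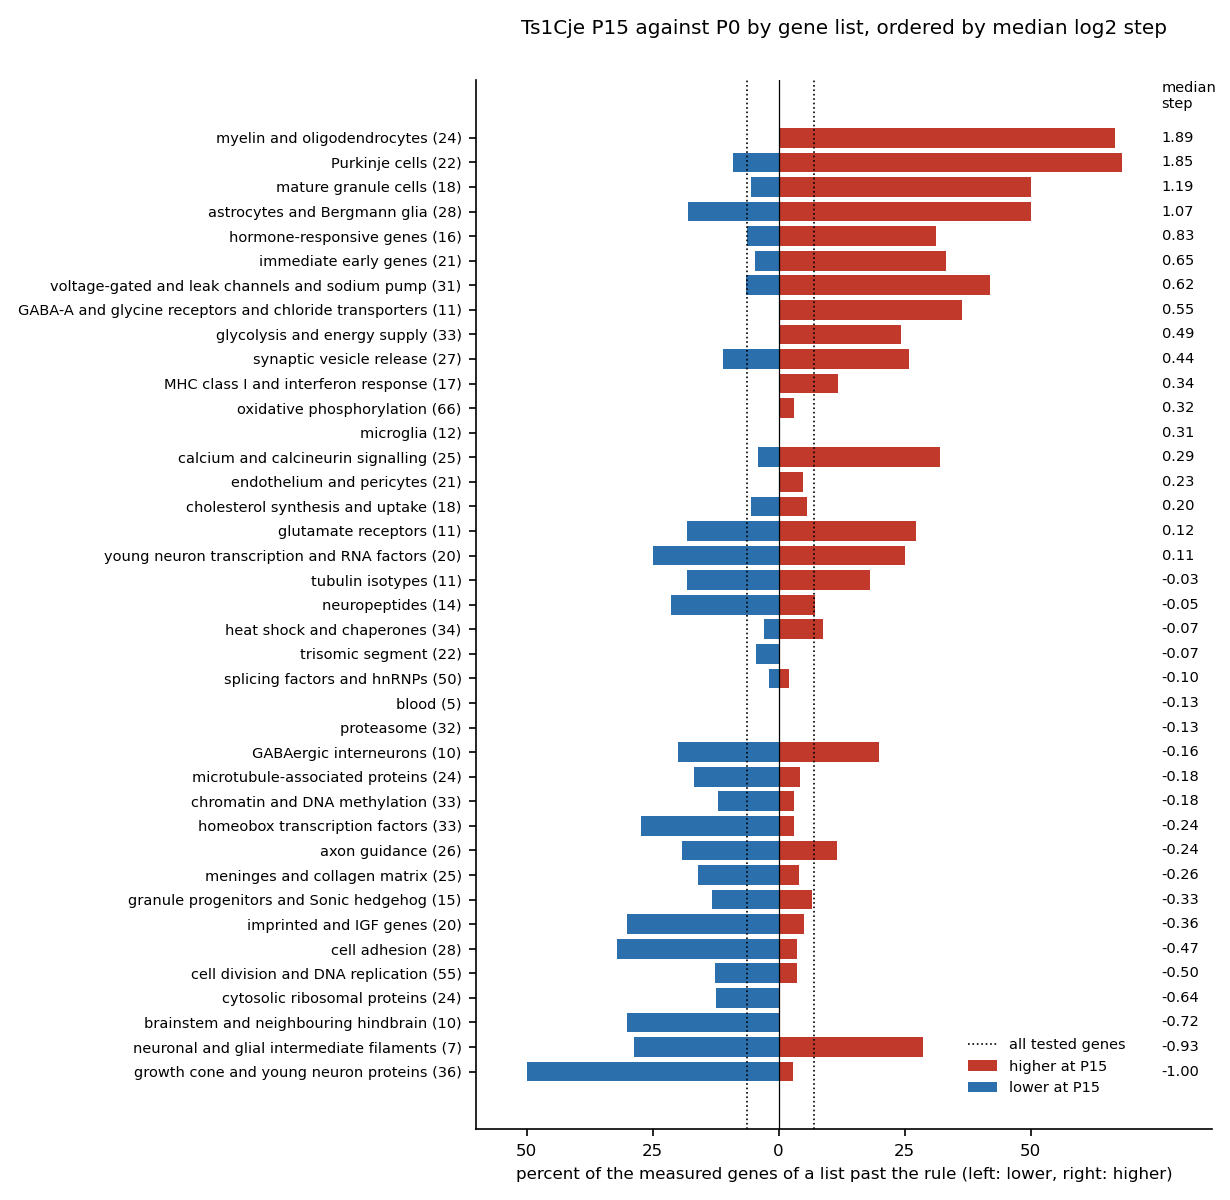
Share of the measured genes of each list (number in parentheses) that rose (red, to the right) or fell (blue, to the left) in Ts1Cje, with the median log2 step at the right edge and dotted lines at the shares of all genes, 7.09% and 6.19%. Myelin, Purkinje, granule and astrocyte lists stand at the top and growth cone genes at the bottom.

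In the trisomic segment 22 of the 35 genes on the array were measured, and 1 fell (4.55%, against 6.19% of all genes) and 0 rose (against 7.09%), with a median step of -0.07 that turned to 0.01 when arrays were scaled to a common median. In euploid 3 of the 22 rose and 3 fell, against 7.71% and 6.83% of all genes. Over both genotypes limma called 4 of the 22 higher and 6 lower, against 14.4% and 14.2% of all genes. The Ts1Cje fall was that of Rcan1, the calcineurin inhibitor, from 449 and 441 to 194 and 173 (step -1.26), and it was also a fall in euploid (-1.5). Ttc3 (2080 and 2165, then 1044 and 1091, step -0.99) was just short of the rule. Dyrk1a, the kinase, was at 1088 and 712, then 745 and 558, and its arrays overlapped. At the other end lay Ets2 (step 0.82), a transcription factor, C2cd2 (0.90) and Son, a splicing cofactor (0.70). The summed signal of all 35 genes on the array, with those under the filter, was 10076 and 9839 at P0 and 8195 and 8369 at P15 in Ts1Cje. In euploid it was 6879 and 6904, then 5915 and 6139. For none of the 22 genes did the step differ at least 2-fold between the genotypes, against 3.11% and 1.57% of all genes in the 2 directions.

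The euploid comparison of the same stages shares no array with that of Ts1Cje. In euploid 437 genes rose (7.71%) and 387 fell (6.83%). Of the genes that rose in Ts1Cje, 267 also rose in euploid (66.4% of the Ts1Cje and 61.1% of the euploid genes), and 222 fell in both (63.2% and 57.4%). The euploid step had the same sign for 378 of the 402 and 338 of the 351. Across genes, which are not independent replicates, the steps correlated at r = 0.789. The median difference of the steps was -0.003.

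The step was at least 2-fold more positive in Ts1Cje than in euploid, without overlap of array pairs, for 176 genes (3.11%), and more negative for 89 (1.57%). Among probe sets these counts were 239 and 121, but 269 and 307 without Ts1Cje P15 array 1, which turns the order of the directions. The difference has no replicate and was not tested. Hoxa5 differed most: it was at 30.4 and 32.3 at P0 and 26.9 and 21.8 at P15 in Ts1Cje, but at 264 and 240, then 16.4 and 13.4 in euploid. Hoxb5 (34.2 and 22.9, then 29.0 and 49.9 in Ts1Cje, 144 and 196, then 35.2 and 31.1 in euploid) showed the same form, in which the euploid P0 pool alone was high. Both are Hox genes of the caudal hindbrain and spinal cord. In the brainstem and hindbrain list, whose summed signal at P0 was 735 and 827 in Ts1Cje and 1112 and 1143 in euploid, 4 of 10 steps were more positive in Ts1Cje and 1 more negative. Whether the dissections differed was not tested.

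Other differences had another shape. Glul, the glutamine synthetase of astrocytes, rose in Ts1Cje from 143 and 153 to 557 and 573 and went from 348 and 319 to 220 and 196 in euploid, but a second Glul probe set gave steps of -0.20 and 0.09. Pus1, a pseudouridine synthase, rose in Ts1Cje (21.8 and 23.3, then 103 and 100.2), with a step of -0.97 in euploid. Rab3b and Cpne6, a copine of neurons, also had more positive steps in Ts1Cje (differences of 2.48 and 2.58). Among the vesicle release genes 6 of 27 steps were more positive in Ts1Cje and 0 more negative, against 3.11% and 1.57% of all genes. Vamp1 had 2.93 against 0.59, Cplx1 2.13 against 0.94, and Syt11 1.47 against -0.14. The Ts1Cje P0 signals of Vamp1 lay under the filter signal, so its difference rests partly on dim values. More positive steps were also found for 3 of 14 neuropeptide genes, 4 of 20 imprinted and IGF genes and 6 of 33 homeobox genes. Of these lists, only the homeobox genes had more negative ones (3). Zap70 had steps of -0.08 and -2.50, with a second probe set at 0.82 and 0.20.

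Some genes of Purkinje and granule cells had a more negative step in Ts1Cje. Car8 had a step of 2.59 in Ts1Cje and 4.27 in euploid. Its P0 signals were 354 and 234 in Ts1Cje against 174 and 95.8, and its P15 signals 1873 and 1644 against 2910 and 2278. Thrsp had 3.19 against 4.92, Neurod1 2.79 against 4.27, Grin2c 2.74 against 4.04, Pax6 0.86 against 2.12 and Zic2 0.98 against 2.54. Of the 18 granule cell genes 4 had a more negative step in Ts1Cje (1.57% of all genes) and 1 a more positive one (3.11% of all), and of the 22 Purkinje genes 3 and 0. These are at most 7 of the 89 genes with a more negative step. In myelin 2 of 24 had a more positive step, Mag (6.01 against 4.12) and Sirt2 (2.29 against 1.16). Uncx, a homeobox gene, had 0.50 against 2.3, and Fut9, a fucosyltransferase, -0.27 against 1.5. Slc6a2, Cep250, Tent5c and Cyp2a12 also had more negative steps in Ts1Cje and were dim, with no P0 or P15 signal above the 61.3 of Tent5c in either genotype.

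**Figure D5:**
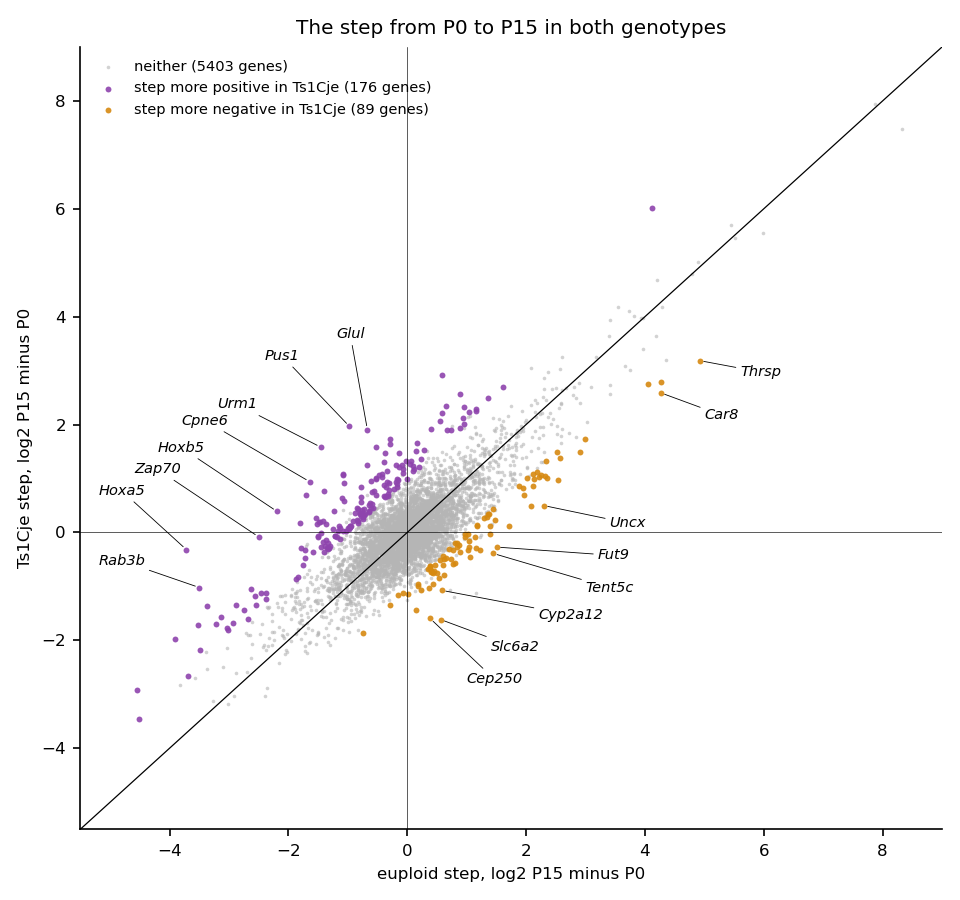
Step from P0 to P15 (log2) of each gene in euploid (x axis) and in Ts1Cje (y axis), with the line of equality. Genes whose step was at least 2-fold more positive (176, purple) or more negative (89, orange) in Ts1Cje lie off the line, and the 8 farthest in each direction are named.

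Promoters poor in CG were more frequent among the genes that rose. RefSeq promoters (GRCm38.p6) were matched to 4588 of the 5668 genes, and CG was counted in the 250 bases before the start. At most 5 CG were found in 10.7% of all measured genes (493 of 4588), in 21.0% of those that rose (65 of 310) and in 34.8% of those that rose at least 4-fold (23 of 66). Among genes that fell the share was 11.4% (31 of 273), and among those that fell at least 4-fold 16.7% (5 of 30). The median count was 16 for all genes, 14.75 for those that rose, 7.5 for those that rose at least 4-fold and 16 for those that fell. The Mobp and Gabra6 promoters printed above, with 4 and 2 CG in 250 bases, belong to the poor class, and those of Nnat (12) and Gata3 (19) do not. The limit of 5 was set after the counts were seen.

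Short motifs were searched on both strands of the same 250 bases and recorded as present or absent for each gene. They serve as a description and not as binding sites. The E2F motif (TTTCCCGC, TTTGGCGC or TTTCGCGC) occurred in 12.2% of the 49 cell division genes with a promoter and in 3.66% of all measured genes with one. The cell cycle homology element TTTGAA stood in 36.7% against 12.4%, and CCAAT in 73.5% against 40.8%. In the myelin list the SOX core ACAAAG occurred in 44.4% (8 of 18) against 14.1%. The TATA box TATAAA occurred in 8.39% of genes that rose and 12.1% of those that fell, against 8.50% of all.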

How the data were processed

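The deposited values are linear signal intensities that the authors made with MAS5, per the submitters' processing notes. Scaling target and version: not given in the sources used here. Each array had been scaled to a common level (mean after trimming 2% at each end, 99.97 to 99.98), and nothing further was scaled. Median signals of the 4 Ts1Cje arrays were 30.5 to 36.2, so many probe sets lay near background. Precision is limited by how few arrays there are. The 3′ to 5′ signal ratios of the GAPDH control were 1.07 and 0.987 at P0 and 0.879 and 0.877 at P15.

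Of 12488 probe sets, 66 controls were removed, and the filter kept those whose mean signal over all 12 arrays reached 20.1, the 40th percentile. The pseudocount of 4.6 is the 20th percentile of all values. Symbols came from the platform annotation (10855 probe sets with 1 symbol, 396 with several, 1237 with none), of which 10839 matched RefSeq and 0 changed. A gene is its brightest probe set with 1 symbol, and 708 tested probe sets had no single symbol.

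Both arrays of a pool were averaged. The model in limma 3.58.1 (R 4.3.3) held genotype and stage over the 6 pools of P0, P15 and P30. It had 2 residual degrees of freedom, a prior of 6.39 from eBayes with trend, two-sided tests and a Benjamini-Hochberg adjusted p threshold of 0.05. Labels do not say whether cerebella of a pool came from separate litters. Scripts were tested on simulated data. Genes are named by rule: the 15 largest rises and falls, the brightest, most changed or role-giving members of 41 lists, the 8 largest step differences in each direction, and markers and controls. The members and lists were chosen with earlier results of these data known. Figures used matplotlib 3.10.9. Alternatives changed the pseudocount, filter, scaling, overlap rule, hybridisations, pools and trend.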

Additional observations from a re-analysis of the deposited data

Results flagged for a closer look

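Both genes below went opposite ways in the genotypes: each P15 array lay above each P0 array in Ts1Cje and below in euploid, at least 2-fold in each. For Urm1 the Ts1Cje signals were 17.1 and 10.8, then 65.7 and 37.9, and the euploid signals 61.7 and 58.7, then 10 and 33.7, a difference of steps of 3.03. For Ascl2 they were 6.4 and 9.2, then 27.4 and 16.4 in Ts1Cje, and 23.5 and 28.7, then 5.2 and 16.5 in euploid, a difference of 2.16. The differences were not tested, since each genotype and stage is 1 pool, and both genes were dim. Ascl2 was singled out after its values were seen.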

How the results depend on the processing

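Counts here are of probe sets. The count that fell in Ts1Cje was 458, 731 without the signal filter and 278 with a filter at the 60th percentile. Steps more positive in Ts1Cje numbered 239, but 146 with a pseudocount of 16, 371 without the filter and 133 with the stricter one, and steps more negative 121, but 58, 273 and 70. Leaving out 1 Ts1Cje array at a time gave 559 to 589 rises (537 with all), 400 to 629 falls, 269 to 313 more positive and 118 to 307 more negative steps, the highest of these without P15 array 1 and 198 without P0 array 1. Over both genotypes limma called 1014 higher and 1074 lower. Scaling to a common median turned that balance, to 1231 and 890, and gave 630 rises and 378 falls in Ts1Cje. Leaving out 1 pool gave 799 to 975 and 700 to 1009, the lowest without the Ts1Cje P0 pool. Hybridisation numbers pair arrays by number only. With them as a replicate block over 12 arrays limma called 1289 and 1380, which counts repeat arrays. Of 87 alternative counts 76 stayed within 1.5 times. Of 443 alternative steps of the genes ranked by size or by genotype difference, 1 changed sign, that of Zap70, which had not passed the rule (-0.08, and 0.18 without P15 array 2). The medians of 12 of 41 lists changed sign under at least 1 alternative. Steps from signals near background depend most on the pseudocount and filter, and with 1 pool a stage the spread between animals is unknown.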
